A study of Mus musculus with 6 samples.

Results

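Mesothelial and epicardial marker genes were followed through RNA-seq libraries of cells from the mouse heart. The set comprised Msln, Upk3b, Upk1b, Wt1, Krt8, Krt18, Krt19, Lrrn4, Muc16 and Efemp1. It was given as a list of known markers, and all 10 were found by symbol among the 55487 Ensembl genes counted. The libraries came from non-myocyte heart cells of C57BL/6 mice enriched with magnetic beads against Cd11b, a surface integrin of myeloid cells, so mesothelial RNA in them is described here as carry-over. The WT group (3 pools) was Egfr f/f, floxed Egfr without deletion. The KO group (3 pools) was Egfr mKO, labelled as a myeloid-specific Egfr -/- genotype. Each library was 1 pool of 5 hearts, or of 6 hearts for KO replicate 3, and the labels give neither the driver of the deletion nor the age or sex of the mice. Each pool counts as 1 replicate, and a p-value here weighs the difference between genotypes against the variation among pools.

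The mesothelium is the flat epithelium that lines the pericardial, pleural and peritoneal cavities, and the epicardium is its layer on the surface of the heart. Its cells keep a simple keratin skeleton and carry surface proteins that keep the cavity walls slippery. The zinc finger factor Wt1 marks epicardial cells, which in the embryo give rise to cardiac fibroblasts and mural cells of the vessels. Digestion of a whole heart frees epicardial cells together with fibroblasts, endothelial cells and pericytes.

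Promoter sequences are shown for 4 of the genes described below. Upk3b and Lrrn4 kept nearly the same ratio in every pool, Efemp1 was below every WT pool in the KO pools, and Krt18 was high in 1 WT pool. RefSeq's promoter table (build GRCm38.p6) held an entry for 6 of the 10 genes. Each line gives the bases before the gene's start, 5′ to 3′ on the gene's own strand and trimmed to lie before both the RefSeq and the GENCODE start, in lower case with matches to the searched motifs in capitals.
Upk3b (chr5:136038246-136038495, plus strand): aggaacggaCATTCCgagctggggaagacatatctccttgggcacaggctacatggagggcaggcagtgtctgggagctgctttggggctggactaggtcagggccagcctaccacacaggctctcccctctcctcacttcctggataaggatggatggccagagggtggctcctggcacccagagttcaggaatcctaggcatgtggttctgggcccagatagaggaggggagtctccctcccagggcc
Lrrn4 (chr2:132880892-132881112, minus strand): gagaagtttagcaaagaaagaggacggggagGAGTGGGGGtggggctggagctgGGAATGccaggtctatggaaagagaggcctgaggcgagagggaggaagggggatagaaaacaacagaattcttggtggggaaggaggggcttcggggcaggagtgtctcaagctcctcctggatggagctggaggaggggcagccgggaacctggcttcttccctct
Efemp1 (chr11:28852955-28853203, plus strand): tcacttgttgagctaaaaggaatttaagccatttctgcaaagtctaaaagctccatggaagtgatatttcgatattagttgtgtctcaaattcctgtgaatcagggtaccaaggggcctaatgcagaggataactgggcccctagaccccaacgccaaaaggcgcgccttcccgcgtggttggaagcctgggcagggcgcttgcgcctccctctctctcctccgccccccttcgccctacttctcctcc
Krt18 (chr15:102027966-102028179, plus strand): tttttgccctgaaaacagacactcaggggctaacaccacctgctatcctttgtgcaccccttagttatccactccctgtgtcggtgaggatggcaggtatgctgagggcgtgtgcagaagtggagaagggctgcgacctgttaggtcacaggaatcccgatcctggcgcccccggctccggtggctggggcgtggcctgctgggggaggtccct
Letters were searched on both strands of the 250 bases before each start. The motif GGAATG, the core bound by TEAD factors of the Hippo pathway, was present in 2 of the 6 promoters, Upk3b and Lrrn4, and in 12.6% of all 32851 promoters. In Upk3b it lies on the opposite strand and so reads CATTCC. The motif GNGTGGGNG, shared by WT1 and EGR zinc finger factors, was present in Lrrn4 alone of the 6 and in 12.7% of all promoters. The TATA box letters TATAAA were in 0 of the 6 and in 12.4% of all. The matches did not overlap each other, and they describe the letters only.

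Gene totals were 17780707 to 27485129 reads per library. Levels are CPM, the read count scaled to a common library size after TMM scaling. Egfr, the targeted gene, was at 47.4 ± 6.29 CPM in WT against 17.3 ± 1.29 CPM in KO (SD, n = 3 each), the direction its labels give. Myeloid markers were high in every library, with a summed level over 12 genes of 6861 to 12181 CPM in the WT pools and 12130 to 12979 CPM in the KO pools. WT replicate 1 and KO replicate 1 expressed Y-linked genes and the other 4 pools did not. WT replicate 1 also held more globin and erythroid RNA, 1874 CPM over 5 genes against 36.1 to 142 CPM in the other pools.

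The 10 marker genes together made up a small and variable part of each library, and their sum had a lower mean in KO. The sum was 51.2, 83.7 and 69.6 CPM in WT replicates 1, 2 and 3, and 47.7, 33.6 and 38.5 CPM in the KO replicates. All KO pools lay below all WT pools, and WT replicate 1 and KO replicate 1 were close. Mean levels were 68.2 ± 16.3 CPM in WT against 39.9 ± 7.14 CPM in KO (SD, n = 3 each), a mean log2 difference of -0.76. The two-sided exact permutation p was 0.1, the smallest that 3 against 3 pools allow. Wt1 and Efemp1 supplied 44.8 to 67.5% of the sum. The other 8 genes summed to 23.3, 41.5 and 22.6 CPM in the WT pools and 26.3, 18.2 and 14.7 CPM in the KO pools, so without Wt1 and Efemp1 the groups overlapped (mean log2 difference -0.54, two-sided exact permutation p = 0.3). In reads, the 10 genes had 1333 to 1607 per WT library and 856 to 1249 per KO library. In such bulk samples, fewer cells of a type and less RNA per cell cannot be told apart.

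**Figure D1:**
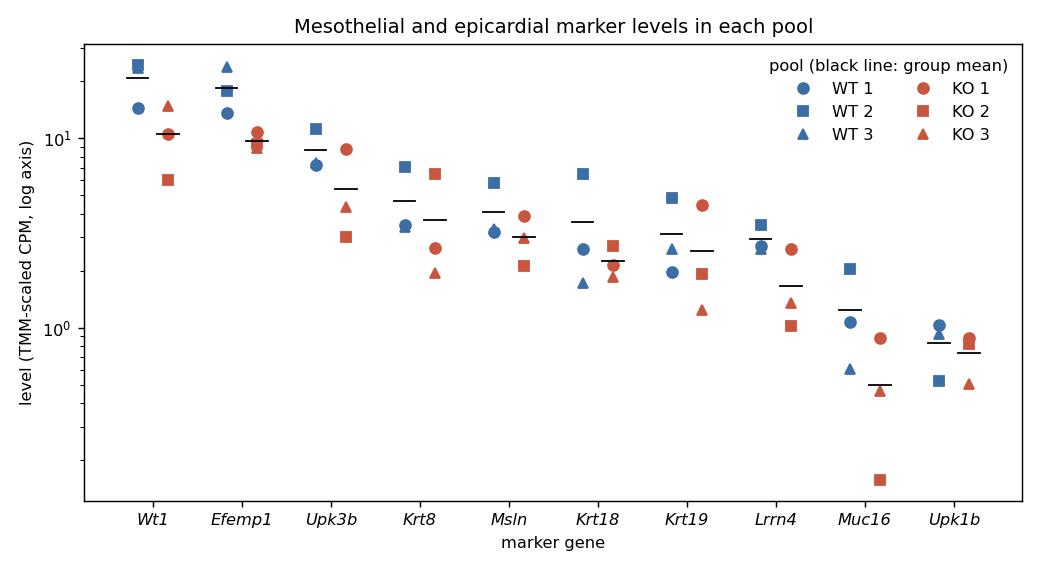
Level of each marker gene in each of the 6 pools, in TMM-scaled CPM on a log axis, with WT pools in blue, KO pools in red and a black line at each group mean (n = 3). Efemp1 and Lrrn4 are the genes whose KO pools all lie below the WT pools, and the lowest point is Muc16 in KO replicate 2 at 0.157 CPM.

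Across the marker set, all 10 genes had negative log2 fold changes in KO and none was called. The median was -0.68, against 0.0072 over all 15707 genes tested, of which 49.2% were negative. All 10 had passed the filter on low counts. At an adjusted p under 0.05 edgeR called 0 of the 10 lower, where 0.0127% of all genes were called lower (Egfr and Lyz2). At an unadjusted p under 0.05, 2 of the 10 were lower, Wt1 and Efemp1, and 10.6% of all genes were. In 2 of the 10, Lrrn4 and Efemp1, all KO pools stood below all WT pools, a pattern that 10.1% of all genes showed. DESeq2 called 1 of the 10 lower (Efemp1) and 4.14% of all genes. EdgeR without its filter called 2 of the 10 lower (Wt1 and Efemp1) and 2.22% of all, and without WT replicate 1 it called 1 of the 10 lower (Efemp1) and 5.97% of all. Leaving out WT replicate 2, the pool with the highest level of 8 of the 10 genes, moved the median to -0.44 and left 7 of the 10 genes negative. Leaving out KO replicate 1 moved it to -0.98.

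**Figure D2:**
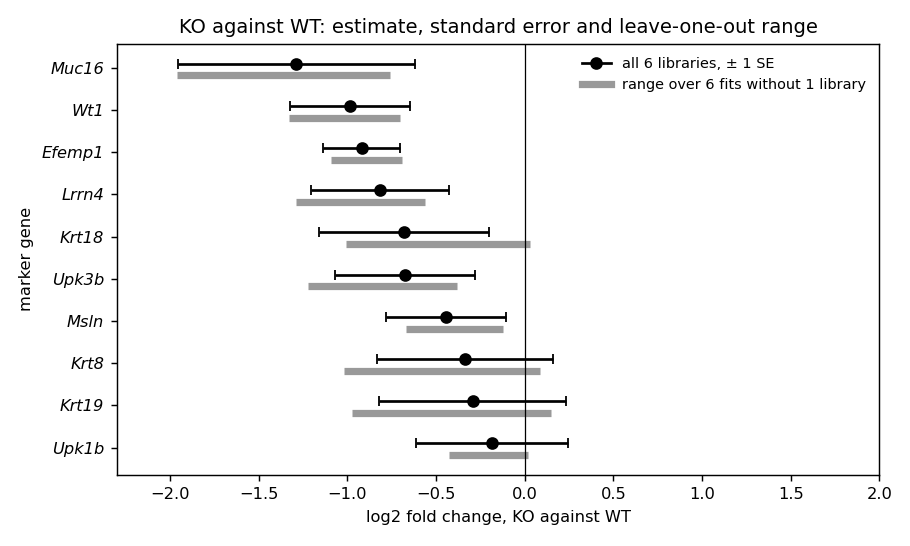
Log2 fold change of each marker gene in KO against WT from edgeR with its standard error (black, all 6 libraries) and the range over the 6 fits that each left out 1 library (grey). All 10 estimates lie below 0, and the ranges of Upk1b, Krt8, Krt18 and Krt19 cross 0.

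Genes of other cells of the heart wall had negative log2 fold changes in the same pools. The summed level of 14 fibroblast genes was 4852 to 15595 CPM in WT and 4118 to 5700 CPM in KO, and that of 12 endothelial genes 2480 to 4141 CPM in WT and 1401 to 1827 CPM in KO. All 14 and all 12 were negative, with medians of -1.12 and -1.08, where 49.2% of all genes were negative. EdgeR called none of either list. At an unadjusted p under 0.05 all 14 and all 12 were lower, where 10.6% of all genes were. Mural cell genes (10 of 10, median -0.93), lymphatic endothelial genes (4 of 4 tested, -0.76), Schwann cell genes (6 of 6, -0.83) and cardiomyocyte genes (10 of 10, -0.54) were also negative, and myeloid genes positive (12 of 12, 0.47), with 0 called in each list. Adipocyte genes summed to at most 1.76 CPM in any pool. For each 1000 CPM of fibroblast genes, the mesothelial sum was 10.6, 8.23 and 4.46 CPM in WT and 8.36, 6.76 and 9.34 CPM in KO. This ratio overlapped between groups, with a mean log2 difference of 0.15 (two-sided exact permutation p = 0.8). Gsn was the largest part of the fibroblast sum, at 2475 to 8238 CPM in the WT pools and 2341 to 3087 CPM in the KO pools. With the mean log2 CPM of each list in place of its sum, so that genes weigh equally, the difference was 0.32 (two-sided exact permutation p = 0.8). For each 1000 CPM of endothelial genes the mesothelial sum was 20.7, 29.6 and 16.8 CPM in WT and 34.0, 23.5 and 21.1 CPM in KO. The mean log2 difference of this ratio was 0.24 (two-sided exact permutation p = 0.5). Adjusted over the 3 sums and ratios, the permutation p-values were 0.3, 0.8 and 0.75 for the sum, the fibroblast ratio and the endothelial ratio. Without Efemp1 the differences of the fibroblast and endothelial ratios were 0.20 and 0.29 (two-sided exact permutation p = 0.9 and 0.4). Without Wt1 and Efemp1 they were 0.36 and 0.45 (two-sided exact permutation p = 0.9 and 0.5). Set against either list, the mesothelial sum was on average slightly higher in KO, within the spread of the pools. The part of these cells in the lower sum was not tested. WT replicate 3, which had the most fibroblast RNA, set the sign of the fibroblast ratio: without it the difference was -0.21.

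**Figure D3:**
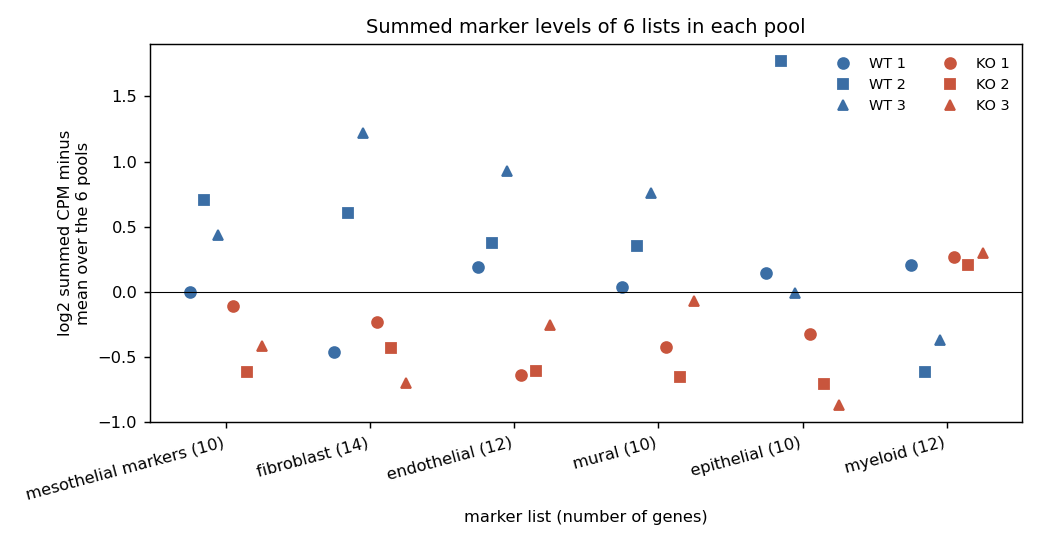
Summed CPM of the mesothelial markers and of 5 lists of other cell types in each pool, as log2 minus the mean over the 6 pools. The mesothelial, endothelial, mural and epithelial sums of all KO pools lie below those of the WT pools, but the mesothelial sums overlap without Wt1 and Efemp1, and the epithelial sums overlap without Scgb1a1. WT replicate 1 lies among the KO pools for fibroblast genes.

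Wt1, the transcription factor of epicardial cells, had a KO mean at 50.5% of WT. It lies on chromosome 2 at 105126529 to 105173616 (GRCm38, plus strand). Its level was 14.4, 24.4 and 23.4 CPM in the WT pools and 10.5, 6.04 and 14.9 CPM in the KO pools. KO replicate 3 stood just above WT replicate 1, so the groups overlapped. EdgeR put the log2 fold change at -0.98 (SE 0.34, adjusted p = 0.247, unadjusted p = 0.0199). Without edgeR's filter on low counts the same change passed (adjusted p = 0.0423), and across all other settings the edgeR, limma-voom or DESeq2 adjusted p ranged from 0.0586 to 0.598. As a description, the log2 ratio of Wt1 to the mural, cardiomyocyte and endothelial sums had SDs of 0.33, 0.37 and 0.39 over the pools. The SD was 0.55 against the sum of the other marker genes, and 0.60, 0.73 and 1.08 against the fibroblast, epithelial and myeloid sums.

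Efemp1 encodes fibulin-3, an extracellular matrix glycoprotein that mesothelial cells and fibroblasts both secrete. It lies on chromosome 11 at 28853204 to 28926743 (plus strand). The WT pools had 13.6, 17.8 and 23.6 CPM and the KO pools 10.8, 9.30 and 8.92 CPM. All KO pools stood below all WT pools, and they lay close together. The mean was 18.3 ± 5.05 CPM in WT and, at 52.8% of that, 9.68 ± 1.02 CPM in KO (SD, n = 3 each), a log2 fold change of -0.92 (SE 0.22) that edgeR did not call over all genes (adjusted p = 0.185, unadjusted p = 0.00313). DESeq2 called it (adjusted p = 0.00885), and so did edgeR on unfiltered genes (adjusted p = 0.018) or after leaving out WT replicate 1 (adjusted p = 0.0192). Over its alternatives the adjusted p ranged from 0.00885 to 0.571. Of the other fibulin genes, all 5 had negative log2 fold changes (median -0.80) and edgeR called none. Fbln2 was at 536 CPM in WT against 308 CPM in KO, Fbln1 at 258 and 139 CPM, Fbln5 at 146 and 84.1 CPM and Efemp2 at 31.3 and 25.4 CPM. As a description, the log2 ratio of Efemp1 to the endothelial, mural and fibroblast sums had SDs of 0.23, 0.24 and 0.30 over the 6 pools, against 0.34 for its ratio to the sum of the other 9 marker genes.

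Upk3b, a uroplakin of the mesothelial surface, lies on chromosome 5 at 136038496 to 136046487 (plus strand). Its level was 7.19, 11.2 and 7.44 CPM in WT and 8.81, 3.02 and 4.34 CPM in KO. KO replicate 1 stood above WT replicates 1 and 3, and the other KO pools below all WT pools. EdgeR put the log2 fold change at -0.67 (SE 0.39, adjusted p = 0.458). Lrrn4 encodes a leucine-rich repeat membrane protein that marks mesothelium, and lies on chromosome 2 at 132868305 to 132880891 (minus strand). It was at 2.69, 3.49 and 2.60 CPM in WT and 2.59, 1.02 and 1.36 CPM in KO. The groups did not overlap, but KO replicate 1 and WT replicate 3 were within 0.01 CPM of each other, less than the counting error of their 68 and 56 reads. EdgeR estimated a log2 fold change of -0.82 (SE 0.39, adjusted p = 0.365).

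Msln encodes mesothelin, a lipid-anchored surface protein, and Muc16 the large membrane mucin that binds it. Msln (chromosome 17, 25748613 to 25754378, minus strand) was at 3.19, 5.78 and 3.30 CPM in WT and 3.89, 2.12 and 2.99 CPM in KO. Its groups overlapped, since KO replicate 1 exceeded WT replicates 1 and 3, and edgeR put the log2 fold change at -0.44 (SE 0.34, adjusted p = 0.576). Muc16 (chromosome 9, 18495455 to 18674530, minus strand) had 28, 39 and 13 reads in WT and 23, 4 and 12 in KO. These reads correspond to 1.08, 2.03 and 0.605 CPM in WT and 0.878, 0.157 and 0.465 CPM in KO, again with overlap. The value of KO replicate 2 has an exact Poisson 95% interval of 0.0428 to 0.402 CPM, which covers counting error only. Muc16 had the log2 fold change farthest from 0 of the 10 genes, -1.29, but also the widest standard error, 0.67 (edgeR adjusted p = 0.406). Of 5 other membrane mucins 2 passed the filter, Muc1 at 3.10 CPM in WT against 2.48 CPM in KO and Muc13 at 0.818 CPM against 0.387 CPM, and edgeR called neither. A predicted gene on the opposite strand overlaps Muc16, and another overlaps Krt8. Because the strand setting of the counting is not given in the sources used here, it is not known how reads in these overlaps were assigned.

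Upk1b, the tetraspanin partner of uroplakins, was counted only 10 to 27 times per library. The gene spans chromosome 16 from 38773184 to 38800328 on the minus strand. Levels were 1.04, 0.521 and 0.93 CPM in WT and 0.878, 0.824 and 0.504 CPM in KO, and edgeR estimated a log2 fold change of -0.18 (SE 0.43, adjusted p = 0.876). Unlike the other 9 genes, it was not at its highest in WT replicate 2 or WT replicate 3, but in WT replicate 1. Of the other uroplakins, which line the bladder, Upk2 had no read in any library, Upk3a and Upk3bl were each at or below 0.0465 CPM in every pool, and Upk1a passed the filter at 0.553 CPM in WT against 0.593 CPM in KO.

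The simple keratins Krt8, Krt18 and Krt19 form the intermediate filaments of mesothelium and of other simple epithelia. Krt8 is the type II chain that pairs with either of the type I chains Krt18 and Krt19. Krt8 (chromosome 15, 101996698 to 102004482, minus strand) and Krt18 (chromosome 15, 102028180 to 102032027, plus strand) lie 23697 bases apart and point away from each other, and Krt19 is on chromosome 11 at 100140810 to 100148665 (minus strand). Krt8 was at 3.50, 7.08 and 3.40 CPM in WT and 2.63, 6.47 and 1.94 CPM in KO. WT replicate 2 and KO replicate 2 were the high pools, so the groups overlapped. Krt18 was at 2.61, 6.46 and 1.72 CPM in WT and 2.14, 2.71 and 1.86 CPM in KO. Here WT replicate 2 alone was high, and the 3 KO pools lay within the WT range. Krt19 was at 1.96, 4.84 and 2.60 CPM in WT and 4.46, 1.92 and 1.24 CPM in KO. WT replicate 2 and KO replicate 1 were its high pools. Log2 fold changes were -0.33, -0.68 and -0.29 for Krt8, Krt18 and Krt19 (SE 0.50, 0.48 and 0.53, edgeR adjusted p = 0.794, 0.544 and 0.833). Without WT replicate 2 all 3 turned to the positive side, with 0.089, 0.033 and 0.15. Krt8 has an annotated pseudogene copy, Krt8-ps, which can take up some of its reads.

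WT replicate 2, the pool with the highest sum of Krt8, Krt18 and Krt19, also had the most Scgb1a1, which encodes the secretory protein of airway club cells. This gene was at 26.9, 89.4 and 21.5 CPM in WT and 8.93, 10.3 and 9.11 CPM in KO. EdgeR estimated a log2 fold change of -2.28 (SE 0.51, adjusted p = 0.181). The summed level of 10 epithelial genes, Scgb1a1 among them, was 102 CPM in WT replicate 2, against 32.9 and 29.6 CPM in the other WT pools and 16.3 to 23.8 CPM in KO. Without Scgb1a1 the other 9 genes summed to 6.03, 12.2 and 8.05 CPM in WT and 14.8, 7.96 and 7.21 CPM in KO, so that the groups overlapped. KO replicate 1 was then the highest pool, with 7.97 of its 14.8 CPM from Sftpc alone. Cdh1, the epithelial cadherin, was at 1.46, 3.65 and 1.53 CPM in WT and 2.48, 1.29 and 2.40 CPM in KO. Foxj1, a factor of ciliated cells, had means of 2.50 CPM in WT against 1.27 CPM in KO. Sftpc, a surfactant protein of lung alveoli, was at 0 CPM in WT replicates 1 and 2 and 0.372 CPM in WT replicate 3, and at 7.97, 3.49 and 0.271 CPM in KO, and it did not pass the filter on low counts. Of the 10 epithelial genes 5 were tested, 4 of them with a negative log2 fold change, and edgeR called 0. The part of such epithelial RNA in the keratin levels was not tested. Other keratins split by level: Krt80 was at 90.8 ± 25.6 CPM in WT against 108 ± 5.33 CPM in KO (SD, n = 3 each), while Krt7, Krt10 and Krt5 had WT means of 2.92, 2.25 and 1.80 CPM and KO means of 1.85, 1.75 and 1.06 CPM. Of 6 other keratins tested 5 had negative log2 fold changes, and edgeR called 0.

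Ratios within a library do not depend on library scaling, and they varied least among Upk3b, Lrrn4 and Msln. The ratio of Upk3b to Lrrn4 reads was 2.67, 3.22 and 2.86 in the WT pools and 3.40, 2.96 and 3.20 in the KO pools. Its highest and lowest values differed by only 1.27-fold, while each gene's own level varied over 3.42-fold or more. Upk3b to Msln varied 1.59-fold, with the WT pools and KO replicate 1 at 1.95 to 2.26 and KO replicates 2 and 3 at 1.43 and 1.45. Krt8 to Upk3b varied 7.17-fold, from 0.299 in KO replicate 1 to 2.14 in KO replicate 2. Krt18 to Upk3b varied 3.88-fold and Krt19 to Upk3b 2.33-fold, and KO replicate 2 was highest in both. The 3 keratins supplied 15.8, 22.0 and 11.1% of the marker genes' summed CPM in WT and 19.4, 33.1 and 13.1% in KO. Muc16 to Msln varied 4.74-fold and Upk1b to Upk3b 5.89-fold, both resting on few reads. Wt1 to Upk3b varied 2.86-fold, from 1.19 in KO replicate 1 to 3.42 in KO replicate 3. These ratios are given as a description over 6 libraries, with no test.

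**Figure D4:**
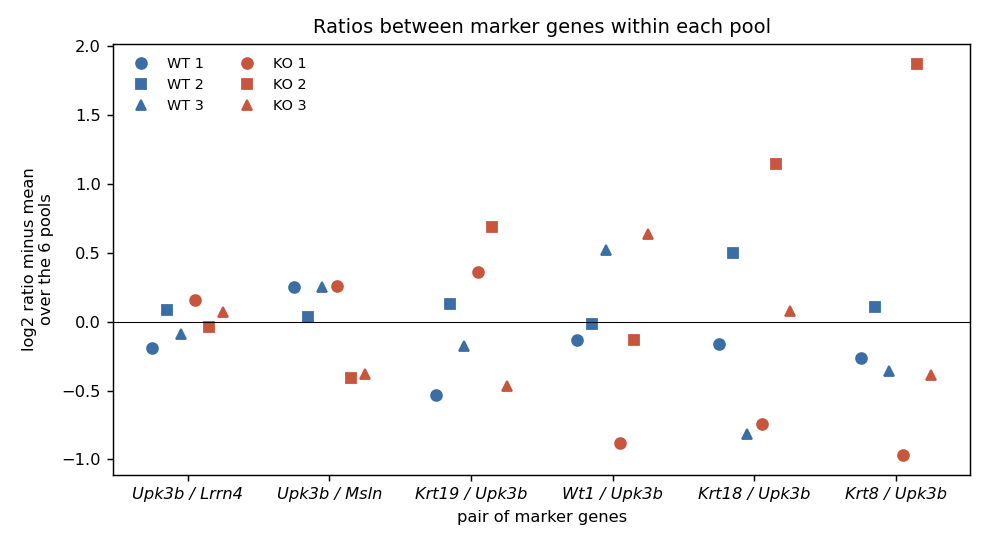
Ratio of the levels of pairs of marker genes within each pool, as log2 minus the mean over the 6 pools. Upk3b to Lrrn4 stays within 1.27-fold, whereas Krt8 to Upk3b spreads over 7.17-fold, with KO replicate 2 at the top.

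Per kilobase of annotated exon, the order of the 10 genes ran from Efemp1 to Muc16. The length used is that of all annotated exons of a gene together, which can exceed 1 transcript, so the order depends on the annotation. The mean over 6 pools was 6.88 CPM per kilobase for Efemp1 and 2.52 for Wt1, and Efemp1 was above Wt1 in 6 of 6 pools. In the KO pools alone the mean of Krt8 (1.88) was above that of Wt1 (1.69), through KO replicate 2 alone (3.31 against 0.975). In KO replicates 1 and 3 Wt1 was the higher gene. Krt8 (2.13), Krt18 (2.03) and Upk3b (1.99) followed and did not differ beyond their spread: Krt8 exceeded Krt18 in 2 of 6 pools and Krt18 exceeded Upk3b in 3 of 6. Krt19 was at 1.53, Msln at 1.16, Lrrn4 at 0.617 and Upk1b at 0.375 CPM per kilobase. Msln was above Lrrn4 and Upk1b above Muc16 in 6 of 6 pools. Muc16, with 26350 bases of exon, was last at 0.033 CPM per kilobase.

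Pools with and without Y-linked expression gave different values for the contrast of genotypes. In the pools without it, 2 of each genotype, the summed marker level averaged 76.7 CPM in WT against 36.0 CPM in KO. In the single pair of pools with it, the sum was 51.2 CPM in WT against 47.7 CPM in KO. Upk3b, Msln and Krt19 were higher in the KO pool of that pair, with log2 ratios of 0.29, 0.29 and 1.19. Wt1 (-0.45), Krt8 (-0.41), Efemp1 (-0.32), Muc16 and Krt18 (both -0.29) and Upk1b (-0.24) were lower in that KO pool. In the other 4 pools Upk3b, Msln and Krt19 had lower means in KO, with log2 ratios of the means of -1.34, -0.83 and -1.24. Every other marker gene also had a lower mean in KO there, from -2.08 for Muc16 to -0.13 for Upk1b, with Krt8 at -0.32. Lrrn4 was nearly equal in the first pair (-0.052) and at -1.36 in the others. The fibroblast sum was higher in the KO pool of the first pair and lower in KO in the others (0.23 and -1.50). The endothelial sum was lower in KO in both (-0.82 and -1.10). The 2 contrasts were not tested against each other, since the first rests on 1 pool per genotype. With Y-linked expression as a covariate the marker median was -0.72 and edgeR called 0 of the 10.

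A further 18 genes known from mesothelium or epicardium gave a mixed picture. Of 16 tested, 12 had negative and 4 positive log2 fold changes (median -0.65), and edgeR called 0, with 7 lower and 2 higher at an unadjusted p under 0.05, where 10.6% and 4.77% of all genes were. The summed level of the 18 genes was 492 to 594 CPM in the WT pools and 671 to 741 CPM in the KO pools. All KO pools stood above all WT pools, opposite to the sum of the 10 marker genes, but Ezr was the largest part of this sum in every pool. The 4 genes with the highest levels were Ezr, a membrane-cytoskeleton linker (287 CPM in WT against 391 CPM in KO), Slc9a3r1 (92.8 and 110 CPM), the protease inhibitor Slpi (35.7 and 107 CPM) and Aldh1a2, a retinoic acid synthesis enzyme (28.9 and 33.2 CPM). All 4 had positive log2 fold changes, of 0.45, 0.25, 1.59 and 0.20. The other 12 genes tested were all negative, so the higher sum in KO came from these 4 genes. Myeloid cells also express Ezr and Slpi. Ezr, at 328, 305 and 228 CPM in WT and 384, 343 and 446 CPM in KO, was the single gene of the 18 with all KO pools above all WT pools, a pattern that 9.59% of all genes showed. In 5 genes, named after their values were seen, all KO pools stood below all WT pools, against 10.1% of all genes. These were Cldn15, a claudin (-0.87, SE 0.22), Pkhd1l1 (-0.80, SE 0.25), the membrane glycoprotein Gpm6a (-0.60, SE 0.25), the Wnt agonist Rspo1 (-0.89, SE 0.42) and the keratin Krt7 (-0.65, SE 0.33), with edgeR adjusted p-values of 0.192 to 0.396. Also outside the rule of highest levels, Tbx18, a T-box factor of the epicardium, was at 6.25 ± 2.45 CPM in WT against 3.19 ± 1.07 CPM in KO (SD, n = 3 each; -0.96, edgeR adjusted p = 0.282). The genes not tested were Bnc1, with at most 0.432 CPM in any pool, and Calb2, the calcium-binding protein calretinin, with at most 0.0785 CPM.

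Genes with a pattern most like the mean of the 10 were ranked by the SD, over the 6 libraries, of their log2 ratio to that mean, with 0.1 CPM added. The mean itself had an SD of 0.48. Among 10791 genes with a mean level of at least 5 CPM, the 6 with the most constant ratio were Dgkh (SD 0.085), Bmpr2 (0.18), Dync2h1 (0.18), Pkhd1l1 (0.18), Dst (0.18) and Syne1 (0.19). Of these, Pkhd1l1 is also in the list of other mesothelial genes. Dgkh, a diacylglycerol kinase, was at 32.9, 47.7 and 33.7 CPM in WT and 33.0, 22.4 and 23.3 CPM in KO, with the high and low pools in the same order as the marker mean except WT replicate 1 and KO replicate 1, which were nearly level.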

How the data were processed

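The authors deposited whole-number read counts per Ensembl gene for each of 6 libraries, with no normalization. The submitters' processing notes list STAR, HTSeq, DESeq2 and GRCm38. Tool versions, gene annotation and strandedness of counting were not given in the sources used here. The 5 counters per file that name no gene were left out: reads outside genes were 5.90% to 8.62% of counted reads, ambiguous reads 1.49% to 1.72% and multiply aligned reads 7.58% to 8.67%.

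Symbols came from a gene name table (55141 of 55487 identifiers matched), coordinates and exon lengths from GENCODE M21. Counts were tested with edgeR 4.0.16 in R 4.3.3 (filterByExpr with minimum count 10, TMM, quasi-likelihood F test, genotype only), two-sided, with Benjamini-Hochberg adjustment over 15707 genes at 0.05. SE is the log2 fold change over the square root of F. Sums and ratios were compared by exact permutation. Alternatives were DESeq2 1.42.0, limma-voom 3.58.1, other scalings and filters, a replicate block, each library left out and, added after seeing the data, a Y-linked covariate and sums without Wt1 and Efemp1 or, for epithelial genes, without Scgb1a1. In a simulation of KO against WT with 15707 genes, edgeR found 53 of 100 genes set to a 2-fold change and 90 of 100 set to a 4-fold change. Of these, 0 had the opposite sign, and 6 genes without a set change were called. Counts were drawn independently for each gene, with the spread fitted to genes of like level, and the changed genes were picked over all levels. The simulation held no variation shared by genes of 1 pool, so these shares are not the power for the marker genes. Of each other list at most the 4 genes with the highest mean CPM are named, with exceptions stated. The genes and lists were chosen with earlier results of these data known. Figures were drawn with matplotlib 3.10.9.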

Additional observations from a re-analysis of the deposited data

How the results depend on the processing

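EdgeR called 2 genes in all. The count was 809 with DESeq2 (167 higher, 642 lower), 782 without the filter on low counts (139 higher, 643 lower) and 1 with limma-voom, and leaving out 1 library gave 1 to 1338, the highest without WT replicate 1, while 4 of the 6 such fits (all but those without WT replicate 1 or KO replicate 3) gave 1. Of the 10 marker genes 0 were called, against 1 with DESeq2, 2 without the filter and 0 to 1 on leaving out 1 library. Among 133 recomputed log2 fold changes of single marker genes, 123 kept their direction and side of the threshold, 4 passed it and 6 changed sign. On leaving out 1 library, Upk1b ranged from -0.43 to 0.019 (positive without WT replicate 1 or KO replicate 3), Krt8 from -1.02 to 0.089, Krt18 from -1.01 to 0.033 and Krt19 from -0.97 to 0.15 (all 3 positive without WT replicate 2, Krt19 also without KO replicate 3). The cause was not tested. The difference in the summed level ranged from -0.95 to -0.60 on leaving out 1 library and was -0.54 without Wt1 and Efemp1, and that of the endothelial ratio from 0.03 to 0.46. That of the fibroblast ratio ranged from -0.21 (without WT replicate 3) to 0.42.

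Replicate numbers are shared by the groups, but same-numbered pools did not deviate together (correlations of 0.0968, -0.16 and 0.006). A replicate block in the edgeR fit gave 3 called genes and 0 called marker genes. Pairing the pools by number leaves the mean difference of the summed level at -0.76 by construction, so that value is no check. An exact test that flips the sign of each pair's difference gave p = 0.25, the smallest that 3 pairs allow. Of the marker genes 3, Upk3b, Wt1 and Efemp1, could be tested at a mean CPM of at least 5. Upk1b and Muc16 had 4 to 39 reads per library.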

Other observations

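Macrophages live free in the cavities that the mesothelium lines, and a list of 9 of their markers gave values on both sides of 0. Of the 9 genes, all tested, 6 had positive and 3 negative log2 fold changes in KO, and edgeR called 0, with 4 higher at an unadjusted p under 0.05, where 4.77% of all genes were. Prg4, which encodes the lubricating glycoprotein lubricin, had the highest mean. Its level was 49.7, 41.0 and 64.5 CPM in the WT pools and 162, 311 and 66.2 CPM in the KO pools (log2 fold change 1.80, edgeR adjusted p = 0.206). Alox15, a lipoxygenase, was at 32.3, 22.9 and 34.3 CPM in WT replicates 1 to 3 and at 131, 342 and 52.1 CPM in KO replicates 1 to 3 (2.55, edgeR adjusted p = 0.185). For both genes all KO pools stood above all WT pools, as in 9.59% of all genes, with KO replicate 3 close to the WT range. KO replicate 2, the highest pool for both, had the lowest levels of Upk3b, Msln, Lrrn4, Wt1 and Muc16. It was not the lowest pool for Krt8, Krt18, Krt19, Upk1b or Efemp1. Its Krt8 (6.47 CPM) and Krt18 (2.71 CPM) were below those of WT replicate 2 alone. A relation between the 2 lists was not tested. Ltbp1, a matrix protein that binds latent TGF-beta, and the adhesion receptor Selp overlapped between the groups, with log2 fold changes of -0.25 and 0.26. Gata6, the defining transcription factor of these macrophages, named after its values were seen, had means of 23.4 CPM in WT against 13.8 CPM in KO (-0.76, edgeR adjusted p = 0.355). Other cells of the heart also express Gata6.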
